A study of Mus musculus with 4 samples.

Results

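The let-7 family with miR-98 was followed in small RNA libraries of mouse fetal liver from Ago2 CD and wildtype animals, with 2 libraries of each genotype. Its members are the 9 mature miRNAs let-7a, let-7b, let-7c, let-7d, let-7e, let-7f, let-7g, let-7i and miR-98. They were chosen by name: every mouse hairpin called Mirlet7 in GENCODE vM21, with Mir98, which gave 12 hairpin genes of 2202. Reads of a member's copies were pooled, and each hairpin was read as a 5p arm, the left side of the stem, and a 3p arm, the right side. Ago2 CD is a catalytic dead form of Ago2, the Argonaute protein that can cut the RNA paired to its guide, and wildtype livers carry the active protein. Total RNA of dissected, frozen livers was used for both genotypes. The design text calls the libraries of a genotype biological replicates. The stage, strain and sex of the fetuses, the residue changed in Ago2, and whether livers were pooled are not given in the sources used here.

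let-7 was found in the nematode Caenorhabditis elegans as a gene that times development, and in mammals its members are low in early embryonic cells and accumulate as tissues mature. In fetal liver, the RNA-binding protein Lin28b holds back let-7 maturation in blood-forming progenitors, and mRNAs such as those of Hmga2 and the Igf2bp genes are known let-7 targets there. A miRNA hairpin is released by Drosha, cut by Dicer, and leaves 1 strand of the resulting duplex, for let-7 mainly the 5p strand, in an Argonaute protein.

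The 5p sequences show why these miRNAs are read as 1 family. In the RefSeq mature sequences (GRCm38.p6), printed 5′ to 3′ with the seed in capitals, all 9 carry the same seed, bases 2 to 8, by which a miRNA finds its targets:
let-7a-5p: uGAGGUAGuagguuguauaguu
let-7b-5p: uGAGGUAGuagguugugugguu
let-7c-5p: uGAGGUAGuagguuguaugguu
let-7d-5p: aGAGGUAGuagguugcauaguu
let-7e-5p: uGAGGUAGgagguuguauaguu
let-7f-5p: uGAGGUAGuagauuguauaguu
let-7g-5p: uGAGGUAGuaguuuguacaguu
let-7i-5p: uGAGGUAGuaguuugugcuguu
miR-98-5p: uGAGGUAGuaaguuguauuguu
Positions are counted from 1 at the 5′ end, and the base of let-7a-5p is written first. let-7c differs from let-7a by A19G, let-7f by G12A and let-7e by U9G, 1 base each. let-7b differs by A17G and A19G, let-7d by U1A and U16C, let-7g by G12U and U18C, and miR-98 by G11A and A19U. let-7i is the most distant, with G12U, A17G, U18C and A19U. Reads without mismatch therefore separate the members wherever they run past the differing bases. Among reads of 18 to 27 nt, those shared by let-7a and let-7c on the 5p arm numbered 1756 and 103 in Ago2 CD replicates 1 and 2, and 41 and 657 in wildtype replicates 1 and 2, and were left out.

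The 3p strands differ more, and the ones that carry the results below are printed in the same way, with bases 2 to 8 in capitals:
let-7a-1-3p: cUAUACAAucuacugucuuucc
let-7d-3p: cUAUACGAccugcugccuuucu
let-7e-3p: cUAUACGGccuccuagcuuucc
let-7i-3p: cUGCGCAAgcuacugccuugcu
miR-98-3p: cUAUACAAcuuacuacuuuccu
The 3p sequence of let-7c-2 is the same as that of let-7a-1, so their 3p reads form a shared feature, called let-7a/c-3p. The copies let-7a-2 and let-7c-1 have 3p strands of their own. No read of 18 to 27 nt came from the 3p strand of let-7a-2 alone, and 9 and 11 reads in Ago2 CD and 7 and 5 in wildtype came from that of let-7c-1.

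The hairpins lie in 8 places of the genome (GRCm38). On chromosome 13, minus strand, let-7a-1 (48538179 to 48538272), let-7f-1 (48537829 to 48537917) and let-7d (48536012 to 48536114) lie in exons of the long noncoding RNA 6720427I07Rik. On chromosome 15, plus strand, let-7c-2 (85706603 to 85706697) and let-7b (85707319 to 85707403) lie in exons of the noncoding transcript Lncppara. On chromosome X, plus strand, let-7f-2 (151912346 to 151912428) and miR-98 (151913214 to 151913321) lie in an intron of Huwe1, which codes for a ubiquitin ligase. let-7c-1 (chromosome 16, 77599657 to 77599750, plus strand, an intron of Mir99ahg) lies 656 bases from mir-99a. let-7e (chromosome 17, 17830352 to 17830444, plus strand, an intron of Spaca6) lies 94 bases from mir-99b. let-7a-2 (chromosome 9, 41536716 to 41536811, plus strand) lies 5211 bases from mir-100. let-7g (chromosome 9, 106178840 to 106178927, plus strand) lies in an intron of Wdr82, a subunit of histone methyltransferase complexes. let-7i (chromosome 10, 122985640 to 122985724, minus strand) overlaps an exon of the pseudogene D630033A02Rik.

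The libraries held 15238066 to 21875540 reads in Ago2 CD and 13138065 to 15841697 in wildtype. The longest read was 46 nt in Ago2 CD replicate 1 and wildtype replicate 2, and 50 nt in Ago2 CD replicate 2 and wildtype replicate 1, so each read length held 1 library of each genotype. The arms deviated from their genotype's mean together in libraries of the same read length (correlation of 0.72 across 584 arms, which are not independent). Markers of other cell types followed it too: neuronal mir-9 and mir-124 summed to 316 and 16.5 counts per 1000000 (CPM, with TMM-scaled library sizes) in Ago2 CD replicates 1 and 2, against 13.1 and 269 CPM in wildtype replicates 1 and 2. The hepatocyte hairpins mir-122 and mir-192 summed to 71102 and 33284 CPM in Ago2 CD and 23800 and 54629 CPM in wildtype. Most of this sum was mir-122. The 5p arm of mir-192 ran the other way, with 3517 and 4022 CPM in Ago2 CD and 3775 and 3050 CPM in wildtype. The myeloid and lymphoid hairpins mir-142, mir-223 and mir-150 summed to 70880 and 60321 CPM in Ago2 CD and 70485 and 71123 CPM in wildtype. Both 50 nt libraries thus lay below both 46 nt libraries, in wildtype by little. The endothelial mir-126 summed to 6240 and 7521 CPM in Ago2 CD and 8257 and 6190 CPM in wildtype. Its sum followed the read length the other way, with both 50 nt libraries above both 46 nt libraries. The erythroid list of mir-451a, mir-144 and mir-486 split by genotype, with 248575 and 332762 CPM in Ago2 CD and 1122780 and 585804 CPM in wildtype. Most of this split lay in Mir451a-5p, given below. Mir144-3p of the same list overlapped between genotypes and was higher in the 50 nt libraries. It had 242062 and 326385 CPM in Ago2 CD and 277323 and 163401 CPM in wildtype. Muscle hairpins stood at 715.5 CPM in wildtype replicate 1 and at 13.3 to 35.1 CPM in the others. The part of these differences in the results below was not tested, and in bulk tissue fewer cells of a type cannot be told apart from less RNA per cell. The values within each read length are therefore given beside the pooled ones. The 2 arms that passed the edgeR test of level over the whole table were Mir451a-5p, whose maturation is known to need the Ago2 cut, and Mir486-3p. Mir451a-5p had 1203 and 965 CPM in Ago2 CD, against 840031 and 415582 CPM in wildtype. Since it filled so much of the wildtype libraries, family levels are given on the TMM scale, with the share of arm reads beside it once.

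The 5p arms of the family were somewhat higher in Ago2 CD than in wildtype by estimate, but no member passed the test. Summed over the 9 members, the family 5p arms had 19332 and 15487 CPM in Ago2 CD, against 12187 and 16286 CPM in wildtype. The means were 17409 ± 2719 CPM and 14236 ± 2898 CPM (SD, n = 2 each), a ratio of 1.22, and the lower Ago2 CD library lay below the higher wildtype library. The log2 changes of the 9 arms (Ago2 CD over wildtype) ran from 0.04 for let-7c to 0.50 for let-7d, with a median of 0.27, beside a median of 0.04 over all 584 arms tested. All 9 were above 0, as were 54.5% of all 5p arms and 53.9% of all arms. None of the 9 passed an adjusted p of 0.05, where 0.342% of arms did, and the edgeR adjusted p of each was 0.997. None of the 9 had both Ago2 CD libraries above both wildtype libraries, against 15.4% of all arms. At an unadjusted p under 0.05, edgeR and DESeq2 each found 2 family arms, beside 2.74% of all arms in edgeR and 3.6% in DESeq2. In edgeR both were 3p arms, and DESeq2 also called no family arm after adjustment. As a share of all arm reads the family 5p sum was 1.96 times as high in Ago2 CD (2.67% and 1.88%, against 0.752% and 1.57% in wildtype), and without the reads of mir-451a and mir-486 1.09 times.

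let-7a, the most abundant member, had 6463 and 4758 CPM on its 5p arm in Ago2 CD, against 3791 and 5503 CPM in wildtype, a log2 change of 0.27 (SE 0.35). let-7f followed with 4003 and 2889 CPM in Ago2 CD and 2176 and 3307 CPM in wildtype, a log2 change of 0.33 (SE 0.36). let-7g had 2789 and 1747 CPM in Ago2 CD and 1305 and 2288 CPM in wildtype. For let-7a, let-7f and let-7g the groups overlapped, and the 46 nt library of each genotype was the higher one. let-7i went the other way, with 1796 and 3010 CPM in Ago2 CD and 2587 and 1516 CPM in wildtype, so that its 50 nt libraries were the higher ones. miR-98 showed the same order, with 308 and 491 CPM in Ago2 CD and 459 and 207 CPM in wildtype. The other 4 members, let-7b to let-7e, followed let-7a. let-7d had 1721 and 1059 CPM in Ago2 CD and 652 and 1313 CPM in wildtype, the largest log2 change of the 5p arms (0.50, SE 0.48). let-7c had 1078 and 663 CPM in Ago2 CD and 602 and 1088 CPM in wildtype. let-7e had 843 and 649.7 CPM in Ago2 CD and 452 and 747 CPM in wildtype, and let-7b had 331 and 221 CPM in Ago2 CD and 163 and 317 CPM in wildtype. The plot of levels by library shows these opposed orders.

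**Figure D1:**
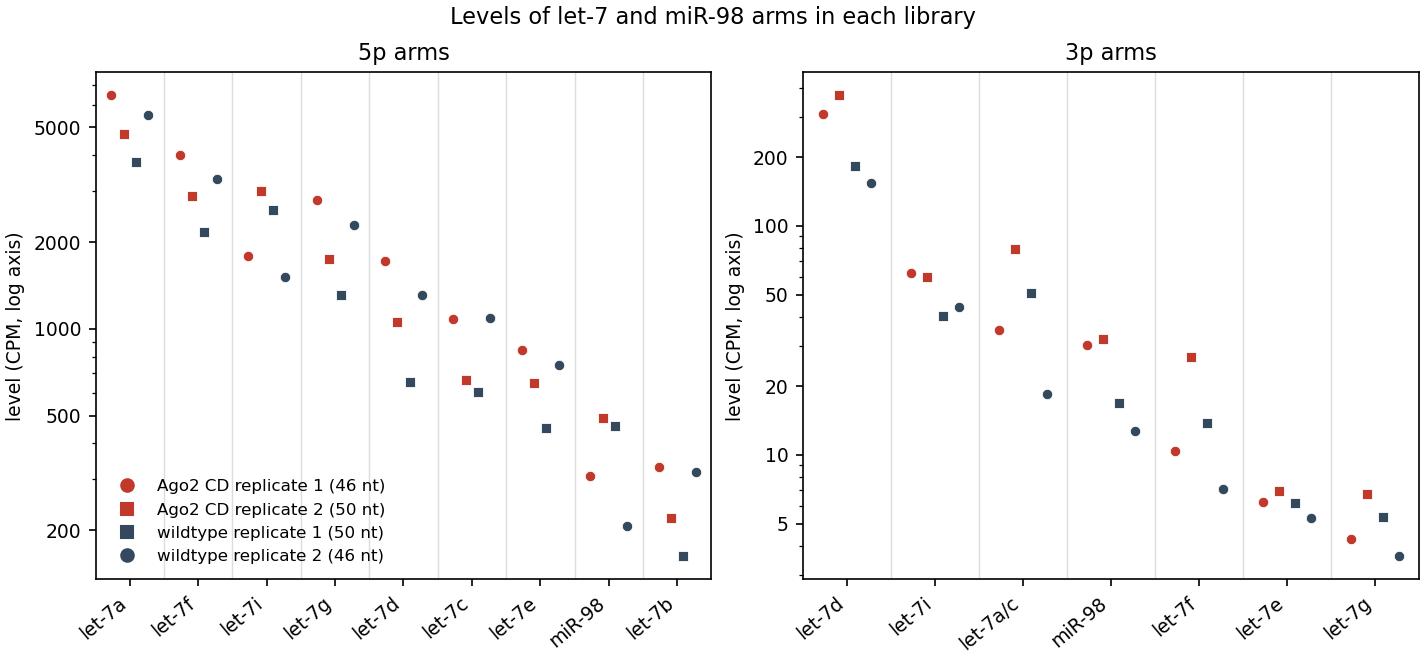
Level of each 5p arm (left) and 3p arm (right) in every library, in CPM on a log axis, members in order of their mean; red points are Ago2 CD, dark points wildtype, circles the libraries with reads of up to 46 nt and squares those of up to 50 nt. The 5p points follow the read length of the library, let-7i and miR-98 in the opposite sense to the others, whereas for let-7d-3p both Ago2 CD points (309 and 372 CPM) lie above both wildtype points (184 and 154 CPM).

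The 5p differences were also taken within the libraries of 1 read length, 1 library of each genotype. The log2 difference of let-7a was 0.23 within the 46 nt pair and 0.33 within the 50 nt pair, and that of let-7f 0.28 and 0.41. let-7d gave 0.39 and 0.70, and let-7i 0.24 and 0.22. let-7c stood at -0.01 and 0.14, the only member that was not higher in Ago2 CD within both pairs. Of the 16 family arms tested, 15 were higher in Ago2 CD within both read lengths, beside 37.8% of all arms, and members that share a cluster or a host transcript are not independent of each other. Read length was then added as a term in the edgeR model, which the main model did not hold. In that fit 9 of the 16 family arms reached an unadjusted p under 0.05, beside 24% of all arms, and the median of the 5p arms was 0.34. None of the 5p arms passed after adjustment. The nearest was let-7d-5p, with a log2 change of 0.54 (edgeR adjusted p = 0.0802).

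In order of abundance let-7a came first in all 4 libraries. let-7f was second in the 46 nt libraries, and in the 50 nt libraries let-7i stood between let-7a and let-7f. After them let-7d stood above let-7c in all 4. At the low end let-7e, let-7b and miR-98 changed places between libraries: miR-98 was last in the 46 nt libraries, and let-7b in the 50 nt libraries. The ranges over the 4 libraries overlapped for each pair of neighbours in the order of mean levels, so no neighbours differed beyond their spread, although let-7a lay above let-7f and let-7d above let-7c within each library. All 9 mature forms are 22 nt long, so the levels are compared over equal lengths.

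The make-up of the family mostly followed the read length. let-7i made up 9.29% and 19.4% of family 5p reads in Ago2 CD, against 21.2% and 9.31% in wildtype. miR-98 made up 1.60% and 3.17% in Ago2 CD and 3.77% and 1.27% in wildtype. let-7a held 33.4% and 30.7% in Ago2 CD and 31.1% and 33.8% in wildtype. let-7f held 20.7% and 18.7% in Ago2 CD and 17.9% and 20.3% in wildtype. let-7g held 14.4% and 11.3% in Ago2 CD and 10.7% and 14.1% in wildtype. Libraries of the same read length but different genotype were thus within a few percentage points of each other for each of these members. let-7d held more in Ago2 CD at both read lengths, with 8.90% and 6.84% against 5.35% and 8.06% in wildtype. let-7c held less at both, with 5.57% and 4.28% in Ago2 CD and 4.94% and 6.68% in wildtype. These differences in share were not tested.

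The 3p arms, usually the discarded strands, were higher in Ago2 CD by estimate in all 7 features with enough reads to test, and the size of the change differed between them. Together the 3p arms had 458 and 586 CPM in Ago2 CD, against 319 and 248 CPM in wildtype, a ratio of means of 1.84. Their log2 changes had a median of 0.72 (range 0.20 to 1.07), beside 0.05 over all 294 tested 3p arms, of which 53.4% were above 0. In 4 of the 7 (let-7d, let-7e, let-7i and miR-98) both Ago2 CD libraries lay above both wildtype libraries, as in 17% of all 3p arms. These levels leave out tailed reads. Once tailed reads were counted with their arm, let-7g-3p too had both Ago2 CD libraries above both wildtype libraries (8.90 and 9.33 CPM in Ago2 CD, 6.91 and 6.69 CPM in wildtype). let-7e-3p then overlapped (7.26 and 5.93 CPM in Ago2 CD, 6.22 and 5.86 CPM in wildtype), and the median over 8 arms, let-7b-3p included, was 0.51. None passed the edgeR threshold in the model without read length, in either count. The median depended on single libraries: it was 0.13 without Ago2 CD replicate 2 and 0.23 without wildtype replicate 2. The arms let-7a-3p, let-7b-3p and let-7c-3p, with at most 11 reads of their own in any library, were not tested.

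let-7d-3p, the most abundant 3p strand of the family in all 4 libraries, had 309 and 372 CPM in Ago2 CD, against 184 and 154 CPM in wildtype. It averaged 340.3 ± 44.8 CPM in Ago2 CD and 169 ± 20.6 CPM in wildtype (SD, n = 2 each), a fold of 2.01 (log2 change 1.01, SE 0.29). Its unadjusted edgeR p was 0.0221, and its adjusted p was 0.997. The groups did not overlap, and the log2 difference was 1.00 within the 46 nt pair and 1.02 within the 50 nt pair. Read length was not a term of the main model, and the same fit, as a crossed pairing, was added after seeing the data. With 4 libraries it leaves little freedom to estimate the spread. With read length as a term, which took up the shared deviation of same-length libraries, let-7d-3p passed (log2 change 1.01, SE 0.14, edgeR adjusted p = 0.0247). It was the only family arm to do so among the 12 of 584 arms (2.05%) called in that fit. Restricting that fit to reads of 20 to 27 nt, a choice made after seeing the data, left it at an adjusted p of 0.0860 in edgeR (log2 change 0.99). With tailed reads counted it had 305 and 395 CPM in Ago2 CD and 196 and 154 CPM in wildtype, beside 89.0 and 189.6 CPM in Ago2 CD and 145 and 42.7 CPM in wildtype for let-7a/c-3p, the next strand. Over all alternatives that left out 1 library the log2 change of let-7d-3p lay between 0.88 and 1.17. These 3p reads come from the same hairpin as let-7d-5p, whose log2 change was 0.50.

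miR-98-3p had 30.2 and 32.1 CPM in Ago2 CD and 16.9 and 12.8 CPM in wildtype, a fold of 2.10 (log2 change 1.07, SE 0.36). Its unadjusted edgeR p was 0.0360 and its adjusted p 0.997, and with read length as a term the adjusted p was 0.0670. Both Ago2 CD libraries were above both wildtype libraries, on 602 and 305 reads in Ago2 CD and 101 and 113 in wildtype. let-7i-3p had 62.2 and 59.96 CPM in Ago2 CD and 40.5 and 44.2 CPM in wildtype (log2 change 0.53, SE 0.31), again without overlap. let-7e-3p had 6.23 and 6.94 CPM in Ago2 CD and 6.19 and 5.31 CPM in wildtype (log2 change 0.20, SE 0.36), so that the groups lay apart by less than the spread within wildtype. The remaining 3 followed the read length: let-7a/c-3p had 35.0 and 79.3 CPM in Ago2 CD and 50.9 and 18.5 CPM in wildtype. Of its untailed reads, 12.6% and 76.8% in Ago2 CD and 75% and 15.2% in wildtype were 22 nt long. Its hairpins have C at position 22, so that an added C counts there as templated, in these levels and in the 3p shares. With tailed reads counted, the order of its libraries stayed the same. let-7f-3p had 10.4 and 26.8 CPM in Ago2 CD and 13.7 and 7.12 CPM in wildtype, and let-7g-3p had 4.32 and 6.73 CPM in Ago2 CD and 5.36 and 3.62 CPM in wildtype. Here the groups overlapped, and the 50 nt library of each genotype was the higher one.

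**Figure D2:**
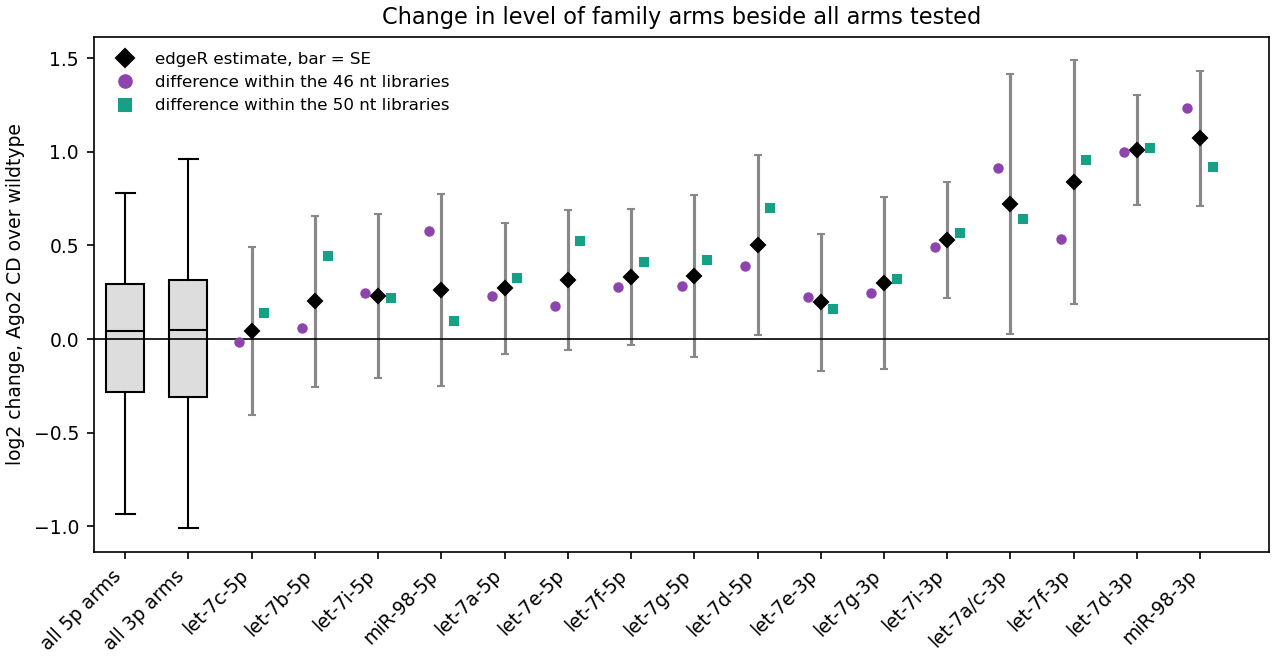
Log2 change (Ago2 CD over wildtype) of the 16 tested family arms, 9 of the 5p and 7 of the 3p side, as edgeR estimates with their SE (black) and as differences within the 46 nt (circles) and 50 nt (squares) libraries; grey boxes show all tested 5p and 3p arms (box from the 25th to the 75th percentile, line at the median, whiskers at the 5th and 95th percentiles). The estimates run from 0.04 for let-7c-5p to 1.07 for miR-98-3p, and for let-7d-3p the differences within both read lengths lie at 1.00 and 1.02.

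Where copies could be told apart by their 3p strands, reads came from several loci. The shared let-7a-1 and let-7c-2 strand had 697 and 754 reads in Ago2 CD and 304 and 164 in wildtype. let-7f-1 had 111 and 66 reads in Ago2 CD and 21 and 30 in wildtype, and let-7f-2 had 96 and 189 in Ago2 CD and 61 and 33 in wildtype. With tailed reads counted, let-7f-1 had 260 and 133 reads in Ago2 CD and 55 and 51 in wildtype, and let-7f-2 had 234 and 528 in Ago2 CD and 285 and 50 in wildtype. The X-linked copy let-7f-2 thus led in the 50 nt library of each genotype, and in those of 46 nt the copies were close.

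The 3p share of a member's reads, a measure of how much of the passenger strand is kept, was not called different for any of 8 units (let-7a and let-7c as a combined unit), where 0.885% of 226 hairpins were called in limma. No family unit reached an unadjusted p under 0.05, against 3.54% of all hairpins. The ratio of 3p to 5p reads had a median log2 change of 0.35 over the family, against 0.07 over all hairpins. It was above 0 in 5 of 8 units, as in 54.4% of all hairpins. Without Ago2 CD replicate 2 the family median was -0.38, and without wildtype replicate 2 it was -0.44. let-7d kept the largest share on its 3p arm, 15.2% and 26% in Ago2 CD, against 22% and 10.5% in wildtype (log2 change of the ratio 0.46, SE 0.70). The groups overlapped, and the sign turned without Ago2 CD replicate 2 (-0.02) and without wildtype replicate 2 (-0.17). Leaving out 1 library also left the genotypes unequal in read length. The log2 difference of the let-7d ratio was 0.61 within the 46 nt pair and 0.32 within the 50 nt pair. Not all units went this way: let-7g gave -0.04 and -0.10, and let-7b and let-7e changed sign between the pairs. miR-98 had 8.93% and 6.14% in Ago2 CD, against 3.55% and 5.82% in wildtype (log2 change 0.74, SE 0.58, limma adjusted p = 0.999). It was the only unit with both Ago2 CD libraries above both wildtype libraries, as in 15.9% of all hairpins. let-7i had 3.35% and 1.95% in Ago2 CD and 1.54% and 2.83% in wildtype. The combined let-7a and let-7c had 0.471% and 1.47% in Ago2 CD and 1.18% and 0.296% in wildtype. let-7e stood at 0.733% and 1.06% in Ago2 CD and 1.35% and 0.706% in wildtype, and let-7f at 0.259% and 0.920% in Ago2 CD and 0.627% and 0.215% in wildtype. let-7b and let-7g lay below 0.5% in all 4 libraries. Counting tailed reads as well raised the share of the combined let-7a and let-7c to 1.23% and 3.34% in Ago2 CD and 3.25% and 0.680% in wildtype, and left let-7d at 15.4% and 26.8% in Ago2 CD and 23.0% and 10.6% in wildtype. The 3p share was higher in the 50 nt libraries for every unit but let-7i and miR-98.

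**Figure D3:**
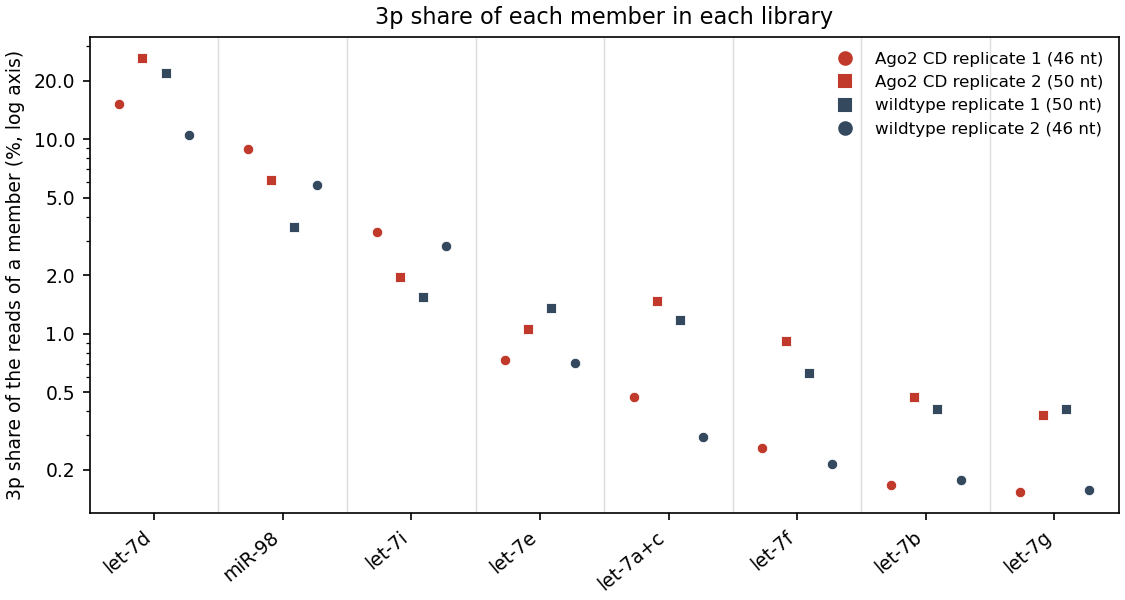
Share of a member's untailed reads that came from its 3p arm, in percent on a log axis, for each library; colours mark the genotype and point shapes the read length. let-7d lies highest, between 10.5% and 26%, and the points of most members pair by read length and not by genotype.

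The lengths of the 5p reads were alike in Ago2 CD and wildtype within a read length and differed between read lengths. In all, 75.4% and 78.8% of untailed family 5p reads in Ago2 CD were 22 nt long, against 78.0% and 73.6% in wildtype. Reads of 21 nt were the next class, at 11.5% and 8.55% in Ago2 CD and 9.39% and 12.3% in wildtype. Reads of 19 nt made up 6.85% and 0.689% in Ago2 CD and 0.692% and 7.03% in wildtype, so that they were common only in the 46 nt libraries. Among the 9 members their share in those libraries ran from 4.82% (let-7c) to 8.76% (let-7e), both in wildtype. Reads of 18 nt showed the reverse, with 1.11% and 8.03% in Ago2 CD and 7.67% and 1.10% in wildtype. On the 3p arms, reads of 22 nt made up 54.4% and 74.2% in Ago2 CD and 74.4% and 50.6% in wildtype, and reads of 19 nt 10.2% and 1.13% in Ago2 CD and 0.996% and 10.8% in wildtype. The test of mean read length called 0.392% of 255 arms and no family arm, nor did any family arm reach an unadjusted p under 0.05 in limma.

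The 18 nt excess of the 50 nt libraries came from 3 members. In let-7i, reads of 18 nt were 1.65% and 33.3% of the 5p arm in Ago2 CD, against 29.1% and 1.65% in wildtype. In miR-98 they were 1.81% and 17.2% in Ago2 CD and 15.5% and 2.30% in wildtype. In let-7g they were 1.51% and 6.06% in Ago2 CD and 5.45% and 1.55% in wildtype. Of the members, let-7i and miR-98 carry A19U, the base after the 18 nt end, and let-7g and let-7i carry U18C, the base at it. In the other 6 members the 18 nt share stayed below 2% in every library, although the 18 nt read of let-7a and let-7c is common to both and was left out (1752 and 101 reads in Ago2 CD, 37 and 654 in wildtype). The short and full-length let-7i forms, and a 16 nt read that let-7g and let-7i share, are printed because they moved between libraries by this much, with the seed in lower case:
let-7i, 22 nt: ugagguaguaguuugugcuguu
let-7i, 18 nt: ugagguaguaguuugugc
let-7g and let-7i, 16 nt: ugagguaguaguuugu
The 18 nt form had 445 and 9439 reads in Ago2 CD and 4450 and 177 in wildtype. The 16 nt form, below the 18 nt needed to be counted, had 5349 and 1 reads in Ago2 CD and 1 and 4607 in wildtype. Both forms were thus present or nearly absent by read length in each genotype.

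**Figure D4:**
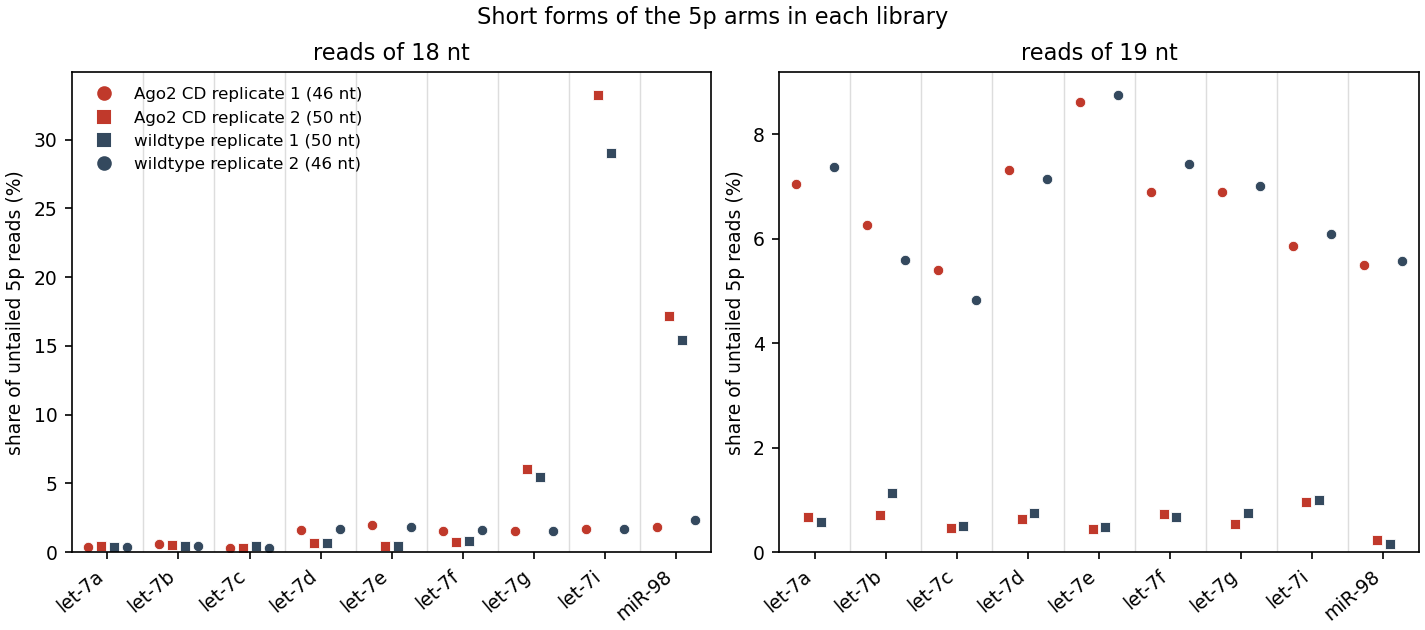
Share of untailed 5p reads of each member that were 18 nt (left) or 19 nt (right) long, in percent, for each library; colours mark the genotype and shapes the read length. The 18 nt form of let-7i reaches 33.3% in the Ago2 CD and 29.1% in the wildtype library of 50 nt, whereas the 19 nt forms are high in both libraries of 46 nt.

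These short forms entered the levels of let-7i and miR-98. When only reads of 20 to 27 nt were counted, let-7i had 1889 and 2232 CPM in Ago2 CD and 2085 and 1594 CPM in wildtype. The ratio between read lengths became smaller and kept its direction, and its share of the family was 9.34% and 14.0% in Ago2 CD and 16.2% and 9.35% in wildtype. miR-98 had 325 and 457 CPM in Ago2 CD and 447 and 217 CPM in wildtype under this restriction. The log2 changes of both arms were then 0.16 and 0.24, and the median of the 9 arms was 0.26.

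Tails, 1 to 3 bases at the 3′ end that do not match the hairpin, were carried by 7.23% and 21.1% of family 5p reads in Ago2 CD and by 18.1% and 8.38% in wildtype. The test of the tailed share called 0% of 278 arms, with 0 arms at an unadjusted p under 0.05 in limma, so no member was called. With read length as a term limma called 0.719% of arms, none of the family. Tails of a single C differed most between libraries, with 0.120% and 15.9% in Ago2 CD and 12.7% and 0.102% in wildtype. Tails of a single A were more frequent in the 46 nt libraries, at 4.8% and 2.60% in Ago2 CD and 2.88% and 5.64% in wildtype. The C mostly stood in place of the last base of the 22 nt form, as U22C, and not behind it:
let-7a, templated 22 nt: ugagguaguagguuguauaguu
let-7a, C at position 22: ugagguaguagguuguauaguC
The capital marks the base that differs from the hairpin. Among let-7a-5p reads that matched the first 21 bases and went on, U22C made up 0.0707% and 16.2% in Ago2 CD and 12.6% and 0.0526% in wildtype. Over the 9 members U22C ran from 14.5% to 18.5% in Ago2 CD replicate 2 and from 10.3% to 16% in wildtype replicate 1. In the 46 nt libraries it was at most 0.104% in Ago2 CD and 0.128% in wildtype. In each of the 9 members its share was larger in the Ago2 CD library of 50 nt than in the wildtype library of 50 nt, 1 library each, with no replicate within that read length.

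Behind position 22, tails differed between members. A single A was carried by 11.3% and 3.79% of let-7i-5p reads in Ago2 CD and 4.51% and 12.6% in wildtype, the highest share of the 5p arms. For let-7a it was 3.90% and 2.18% in Ago2 CD and 2.50% and 4.84% in wildtype. A single U was carried by 6.10% and 3.04% of let-7i-5p reads in Ago2 CD and 3.06% and 5.81% in wildtype. let-7e had 3.98% and 2.93% in Ago2 CD and 4.32% and 4.82% in wildtype, and miR-98 had 3.45% and 2.00% in Ago2 CD and 2.06% and 2.87% in wildtype. In these 3 members the hairpin goes on with G after the 22 nt form. In let-7a, let-7b, let-7c, let-7d and let-7g it goes on with U, so that an added U cannot be told from a read of 23 templated bases, and let-7f has a copy of each kind. Such 23 nt reads made up 9.26% and 9.66% of let-7b-5p in Ago2 CD and 8.34% and 11.4% in wildtype, and at most 4.41% of each of the other 4 in any library.

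The 3p strands differed between members in how often they carried an added U. A single-U tail stood on 55.2% and 64.3% of let-7a/c-3p reads in Ago2 CD and on 68.5% and 52.5% in wildtype. On let-7i-3p it stood on 5.41% and 2.35% in Ago2 CD and 1.64% and 5.11% in wildtype. The let-7i hairpin has U at position 22 of its 3p strand, so an added U there counts as templated. Its share can therefore not be set against that of let-7a/c-3p or let-7i-5p. Pre-let-7 hairpins end in the 3p strand, and in human cells most of them receive a single U from the enzymes TUT4 and TUT7 before Dicer cuts, except let-7a-2, let-7c and let-7e, whose ends already have the usual overhang. In the strand shared by let-7a-1 and let-7c-2, the form that ends in a single U after 21 matching bases is printed beside the templated one, the added base in capitals:
let-7a-1 and let-7c-2 3p, templated 22 nt: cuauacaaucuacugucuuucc
let-7a-1 and let-7c-2 3p, U at position 22: cuauacaaucuacugucuuucU
Of the reads of this strand that reached position 22, C22U made up 83.0% and 69.5% in Ago2 CD, against 74.1% and 82.8% in wildtype. For let-7f-2 the share was 95.5% and 69.8% in Ago2 CD and 82.5% and 76.9% in wildtype, and for let-7f-1 it was 81.6% and 68.5% in Ago2 CD and 77.8% and 70.6% in wildtype. For let-7g it was 78.4% and 69.0% in Ago2 CD and 53.8% and 78.8% in wildtype, positions being counted from the start of most reads, 1 base after the RefSeq start. let-7b, on 24 and 10 reads in Ago2 CD and 5 and 8 in wildtype, had 95.8% and 70% in Ago2 CD and 80% and 87.5% in wildtype. In let-7e, by contrast, C22U made up 10.1% and 2.04% in Ago2 CD and 12.5% and 8.57% in wildtype, on 79 and 49 reads in Ago2 CD and 32 and 35 in wildtype. let-7c-1 had 1 such read of 13 over the 4 libraries.

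In all 4 libraries let-7e thus lay below each of let-7a-1 with let-7c-2, let-7b, let-7f-1, let-7f-2 and let-7g in this share. Between the genotypes the shares of these 3p strands overlapped. let-7d, let-7i and miR-98 have U at position 22 of the hairpin, so that an added U there cannot be seen. In let-7d-3p, U22C made up 0.554% and 23.9% in Ago2 CD and 22.3% and 1.29% in wildtype, which shows that the C of the 50 nt libraries occurred on both arms. In those libraries an extra C at position 22 cannot be told from the templated one on strands with C there.

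**Figure D5:**
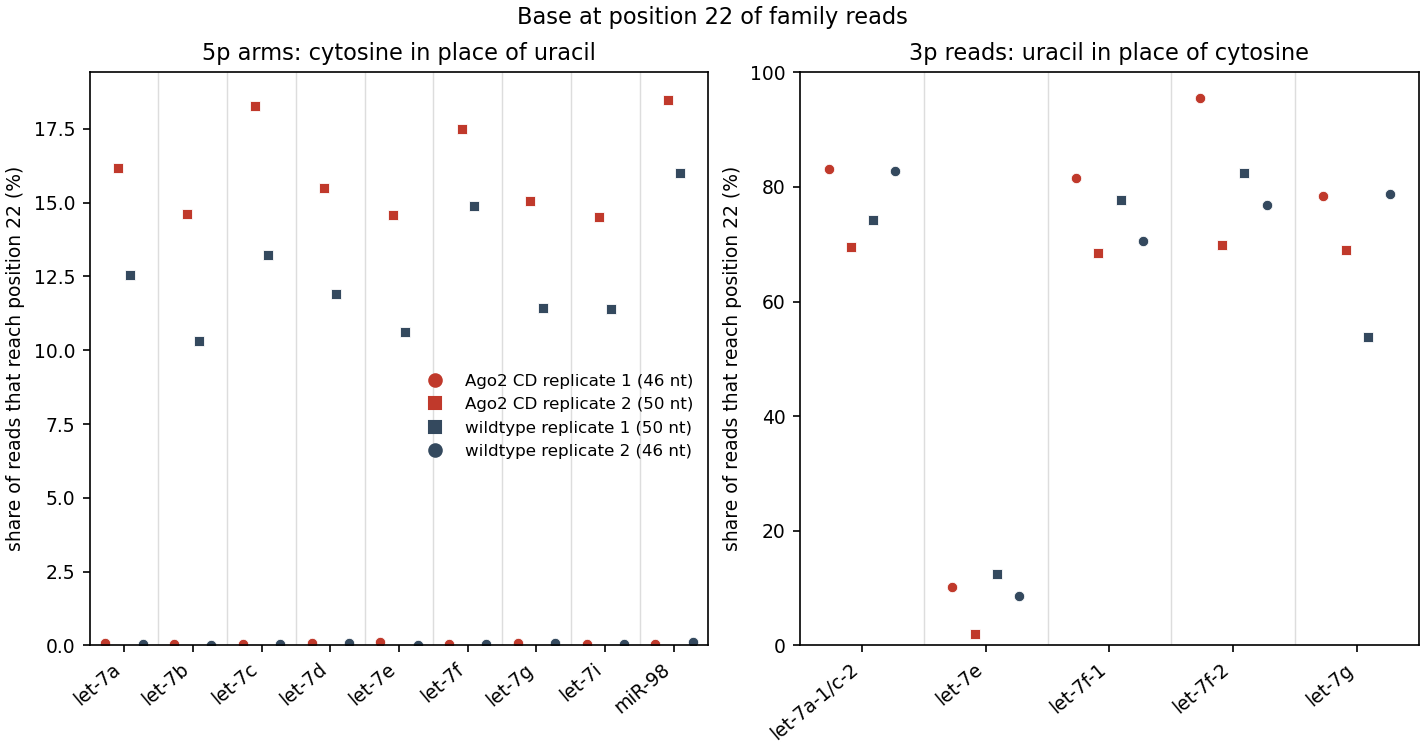
Share of reads with cytosine in place of uracil at position 22 of the 5p arms (left) and with uracil in place of cytosine at position 22 of 3p strands with at least 10 such reads in every library (right), in percent of reads that match the first 21 bases and reach position 22; colours mark the genotype and shapes the read length. On the left, among these 4 libraries, only those of 50 nt lie above 1%, and on the right let-7e lies at 2.04% to 12.5% while the other strands lie at 53.8% or more.

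The 5′ ends, which set the seed, were uniform on the 5p arms. The main start held 95.3% and 97.1% of family 5p reads in Ago2 CD and 97.6% and 95.2% in wildtype. Reads that began 1 base later, and so carry a shifted seed, made up 3.20% and 1.15% in Ago2 CD and 0.913% and 3.29% in wildtype. No member was called in the test of the main 5′ end (0% of 255 arms, with 1.18% at an unadjusted p under 0.05 in limma and no family arm among them). With read length as a term 0.392% were called, again none of the family. The 3p strands were less uniform: 29.7% and 19% of miR-98-3p reads in Ago2 CD and 23.8% and 43.4% in wildtype began 1 base after the main start, and 8.05% and 7.55% of let-7d-3p reads in Ago2 CD and 11.8% and 10.2% in wildtype. Reads of 28 nt or more were rare on the family's hairpins, with 26 and 1 in Ago2 CD and 2 and 16 in wildtype, and none was longer than 30 nt. As a share of family reads this was 0.00644% (95% exact Clopper-Pearson interval 0.00421% to 0.00943%) in Ago2 CD replicate 1 and 0.0105% (0.00599% to 0.0170%) in wildtype replicate 2, intervals that overlap and cover counting error only.

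The miRNAs that lie in clusters with let-7 give values from the same transcripts or regions, and whether they differ from let-7 was not tested. miR-125a-5p, which shares the cluster of let-7e, had 1325 and 1316 CPM in Ago2 CD and 1368 and 1231 CPM in wildtype (log2 change 0.02, SE 0.26). miR-99b-5p, the nearest neighbour of let-7e, had 357 and 402 CPM in Ago2 CD and 366 and 321 CPM in wildtype (0.14, SE 0.27). Its log2 difference was 0.15 within the 46 nt pair and 0.14 within the 50 nt pair. miR-125b-1-5p, listed with these neighbours, had 874 and 1105 CPM in Ago2 CD and 1229 and 1002 CPM in wildtype (-0.17, SE 0.29). miR-99a-5p, the neighbour of let-7c-1, had 639 and 845 CPM in Ago2 CD and 913 and 643 CPM in wildtype (-0.07, SE 0.33). miR-100-5p, the neighbour of let-7a-2, had 24.9 and 68.7 CPM in Ago2 CD and 82.9 and 32.8 CPM in wildtype (-0.31, SE 0.72). No arm of these neighbours was called. miR-99a-5p, miR-99b-5p, miR-100-5p and miR-125b-1-5p were higher in the 50 nt libraries, opposite to let-7a, let-7c and let-7e.

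Of 194 arms outside the family with a mean of at least 100 CPM, the 5 whose levels over the 4 libraries were most like the family 5p sum were miR-200b-3p, miR-500-3p, miR-431-5p, miR-146b-5p and miR-128-1-3p. Likeness was the distance between log2 deviations from each arm's own mean, from 0.14 for miR-200b-3p to 0.21 for miR-128-1-3p over 4 libraries. miR-200b-3p had 558 and 496 CPM in Ago2 CD and 355 and 517 CPM in wildtype.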

How the data were processed

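The authors deposited, for each library, raw counts per read sequence, which the values show to be whole numbers without normalization. A sequence had a further line in the files of Ago2 CD replicate 2 (5617 lines) and wildtype replicate 1 (4152 lines), and its counts were summed. The submitters' processing notes name cutadapt, an adapter trimmer, without a version; other steps are not given in the sources used here. The members, lists and tests were chosen with earlier results of these data known. Reads of 18 to 27 nt were matched without mismatch to the 2202 hairpins of GENCODE vM21 (GRCm38) on the sense strand; reads that fitted several features were left out. A read without a match was called tailed, and kept apart, where it matched once its last 1 to 3 bases were removed. Sequences were credited to RefSeq GRCm38.p6, in which all members had an entry.

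Ago2 CD and wildtype arm counts were compared in R 4.3.3 by edgeR 4.0.16 (quasi-likelihood F test, two-sided, after filterByExpr and TMM scaling), with Benjamini-Hochberg adjustment over all arms and a threshold of 0.05. SE is the log2 change divided by the square root of F. Differences within a read length are of log2 CPM, computed at a prior count of 2. The 3p to 5p ratio (pseudocount 0.5, at least 20 reads in every library and 10 on the minor arm over all), tailed share, mean read length and main 5′ end (at least 200 reads in every library) were tested with limma 3.58.1. DESeq2 1.42.0 was an alternative. The functions were tested on simulated data. With 2 libraries against 2, an exact permutation p cannot go below 0.333, so single values have no test. Same replicate numbers did not pair the libraries. All members were named, with their cluster neighbours and the 5 arms most alike. Reads carry no molecular identifiers, so p-values and intervals reflect these libraries. Depth was 13138065 to 21875540 reads. The human end class of mouse let-7c-2 was not assigned. Other software was Python 3.11.15, NumPy 2.4.6 and SciPy 1.17.1.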

Additional observations from a re-analysis of the deposited data

How the results depend on the processing

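Over 208 member levels under alternatives, 197 kept their sign and side of the threshold, 10 turned in sign (all on leaving out 1 library, none called) and let-7d-3p alone passed, with read length as a term. In edgeR 2 arms were called as reported, 11 with no filter on low counts, 12 with read length as a term, 4 with that term on reads of 20 to 27 nt, and 7 in DESeq2. Leaving out each library gave 0 to 4 arms (without Ago2 CD replicate 1 or 2, 0 arms, with 14 and 11 at an unadjusted p under 0.05). The family arms called were 0, and 1 with read length as a term. Same-numbered libraries deviated in opposite directions (correlation -0.72), and the replicate block called 2 arms. With 2 libraries per genotype the deviations mirror each other, so this value is that of the same-length libraries with its sign turned and adds nothing to it. The crossed pairing, added after seeing the data and the same fit as read length, called 12.

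With reads on arms as library size, which moves the median of all arms to 0.74, the family median was 0.99 on the 5p and 1.55 on the 3p side, and the log2 ratio of the 5p sum as a share of arm reads was 0.97. On leaving out each library the 5p median ran from 0.074 to 0.69 and the 3p median from 0.13 to 0.78. The members whose sign turned ran from -0.15 to 0.80 (let-7b-5p), -0.34 to 0.57 (let-7c-5p), -0.031 to 0.83 (let-7g-5p), -0.17 to 0.69 (let-7i-5p), -0.19 to 0.98 (miR-98-5p) and -0.031 to 0.63 (let-7g-3p), and the 3p to 5p ratio of let-7d from -0.17 to 1.09. The cause was not tested.

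The ratio test called 2 hairpins as reported and 0 to 2 on leaving out each library (0 in limma without Ago2 CD replicate 1, where 11 had an unadjusted p under 0.05, and without replicate 2, where 3 did). With read length as a term limma called 2 arms for the tailed share, also for tails other than C, and 1 for the main 5′ end, none of the family. Mean read length called 1 arm as reported, 0 with the replicate block (2 at an unadjusted p under 0.05), 0 with at least 50 reads (6 unadjusted) and 0 to 1 on leaving out each library (2 unadjusted in each). A genotype left with 1 library takes its spread from the other genotype. All listed alternatives were run. Depth limits the 3p arms of let-7b and let-7c, with at most 11 own reads per library.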
